A study of Arabidopsis thaliana with 6 samples.

Results

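The transcripts described here are those of 10 enzymes that make indole glucosinolates, taken by gene ID from 33323 listed genes. Of the 10, 7 serve the indole branch (CYP79B2, CYP79B3, CYP83B1, GSTF9, GSTF10, SOT16 and CYP81F2) and 3 are shared with the aliphatic branch, which starts from methionine (GGP1, SUR1 and UGT74B1). All 10 were listed in every library and all 10 passed the filter on low values. The material was seedlings of Arabidopsis thaliana at an age of 5 days, from which poly(A) RNA was sequenced, with 3 libraries of the hid1 (hidden treasure 1) mutant and 3 of wild type (WT), which the submitters call biological replicates. Both genotypes were grown in the condition labelled cR, known from the study to mean continuous red light. The gene gives a noncoding RNA with a known role in photomorphogenesis, by which a seedling changes form in light. The sources used here do not give the allele, the parental strain or how many seedlings were pooled. No gene ID could be tied to HID1 by name, so the level of the mutated gene was not checked.

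Glucosinolates are sulfur-rich defence compounds of the cabbage order, stored in intact cells and cleaved by myrosinases when tissue is crushed. Indole glucosinolates are built from tryptophan, which is turned into indole-3-acetaldoxime, oxidized, joined to glutathione, trimmed, cleaved to a thiohydroximate, glucosylated and sulfated. Indole-3-acetaldoxime is also a branch point, since it can feed the synthesis of the phytoalexin camalexin and of auxin.

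Levels are the authors' RPKM, read numbers scaled to the length of the gene and the size of the library, so values of different genes can be set side by side per length. A log2 fold change is the mean log2(RPKM + 1) of hid1 less that of WT, given with its standard error (SE), which makes the change of a gene of low level look smaller than it is. The test was limma across 18871 genes with Benjamini-Hochberg adjustment, and a gene was called at an adjusted p of 0.05 or lower. The depth was estimated at 17.7 to 23.6 M reads (10 to the power 6) in the hid1 libraries and 19.7 to 25.9 M in the WT libraries. By that estimate CYP81F2 rested on about 33 to 171 reads per library, UGT74B1 on about 392 to 989 and GSTF9 on about 6622 to 18224. Markers of green shoot, vascular tissue, root and seed were above 0 in all 6 libraries. The summed RPKM of 10 root markers was 104.9 to 180.8 in hid1 and 52.9 to 113.1 in WT, where replicate 1 held the highest value. Their mean log2(RPKM + 1) was 2.85, 2.59 and 2.63 in hid1 and 2.56, 1.8 and 1.92 in WT, without overlap. Of 7 root markers tested, 3 were called higher and none lower. Of 6 green shoot markers, 2 were called lower, and the sums of the 6 overlapped (51082 to 64608 RPKM in hid1, 59560 to 60966 in WT). The mean log2(RPKM + 1) of the 6 did not overlap. It was 11.58, 11.58 and 11.5 in hid1 and 11.64, 11.78 and 11.71 in WT. In RNA of seedlings, fewer cells of a type and less RNA per cell cannot be told apart. The part of these markers in the results below was not tested, and values without WT replicate 1 are given where they change a call.

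Of the 10 transcripts, 5 fell in hid1, 1 rose and 4 did not pass the test. Those that fell were GSTF9, CYP79B3 and the 3 shared enzymes GGP1, SUR1 and UGT74B1, by 0.64 to 0.87 on the log2 scale. CYP81F2, the least abundant of the 10, rose. Across all genes tested, 4.21% were called lower and 9.41% higher, 13.6% in all. The median log2 fold change was -0.54 over the 10, -0.45 over the 7 indole members and -0.79 over the 3 shared members, against 0.07 over all genes tested. The libraries of the genotypes did not overlap for 8 of the 10, where this held for 34.6% of all genes tested. Of the 10, 9 had a lower fitted level in hid1, as had 7780 of the 18871 genes tested. The change of GSTF10 was within the spread, and its sign turned without hid1 replicate 1 or 2 or WT replicate 2 (0.00 to 0.07).

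**Figure D1:**
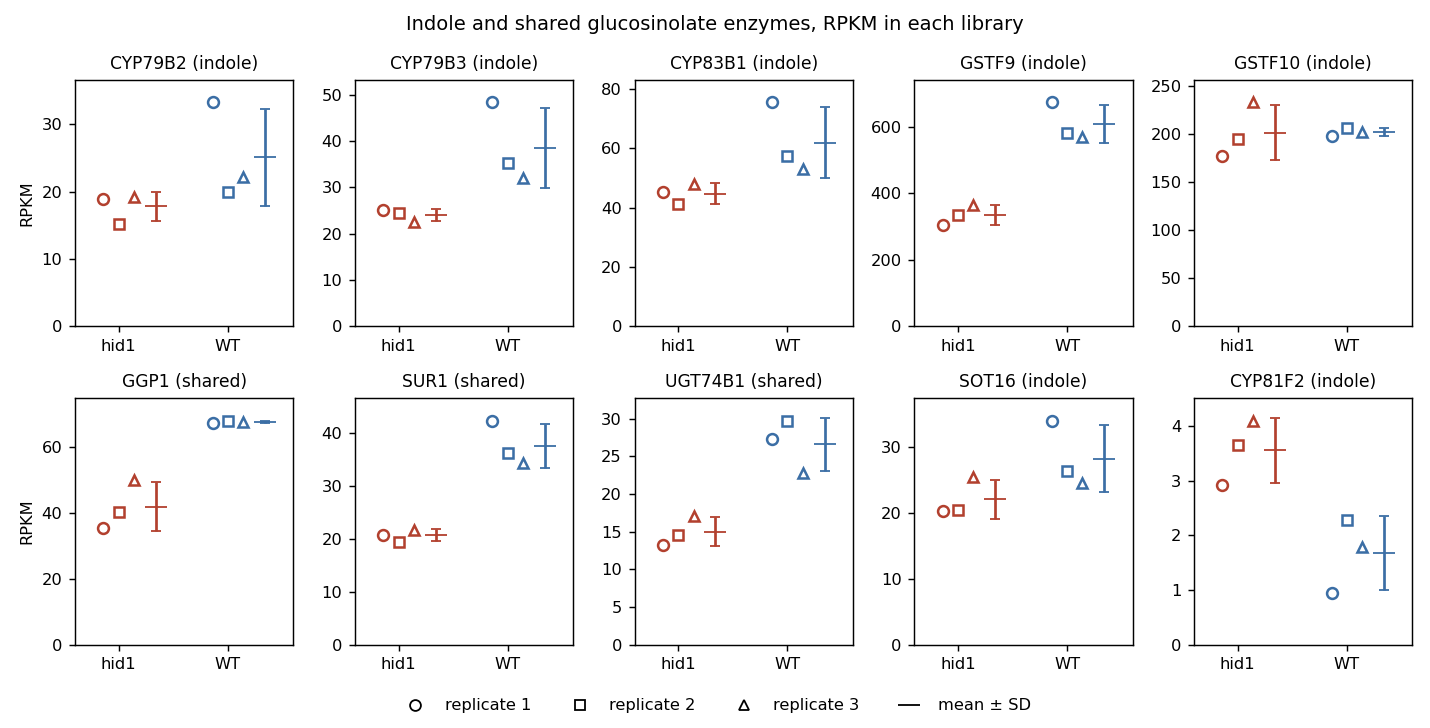
RPKM of the 10 enzymes in each of 3 hid1 and 3 WT libraries, one panel per gene in pathway order, with the mean ± SD beside the points and each vertical axis starting at 0. The hid1 points of SUR1 lie between 19.47 and 21.77 RPKM, below its WT points, whereas those of GSTF10 lie on both sides of its WT points.

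The pathway opens with CYP79B2 and CYP79B3, cytochromes P450 that convert tryptophan to indole-3-acetaldoxime. CYP79B2 (AT4G39950) lies on chromosome 4 at 18525042 to 18527602 and CYP79B3 (AT2G22330) on chromosome 2 at 9488413 to 9491404, both on the plus strand of the TAIR10.1 annotation. CYP79B3 was at 25.09, 24.43 and 22.49 RPKM in the hid1 libraries, against 48.43, 35.19 and 31.95 RPKM in the WT libraries. The genotypes did not overlap, and the WT libraries were spread more widely than the hid1 libraries. CYP79B3 fell by 0.64 on the log2 scale (SE 0.15, limma adjusted p = 0.0188). Its call was lost without hid1 replicate 2 (adjusted p = 0.0615) or 3 (0.078) and without the filter on low values (0.0583).

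CYP79B2 was at 18.84, 15.23 and 19.26 RPKM in hid1, against 33.33, 19.89 and 22.13 RPKM in WT. The genotypes did not overlap, though narrowly, and WT replicate 1 stood well above the other WT libraries. It did not pass the test (-0.45, SE 0.18, limma adjusted p = 0.125). In the replicate-block fit the adjusted p was 0.0346, and over the other alternatives it lay between 0.0723 and 0.315. The ratio of CYP79B2 to CYP79B3 within a library was 0.751, 0.623 and 0.856 in hid1 and 0.688, 0.565 and 0.693 in WT, and these ranges overlapped. The difference of log2 values between the genes differed between hid1 and WT by 0.19 (SE 0.16, exact permutation test, two-sided p = 0.4, 0.5 adjusted over the 5 pairs of genes compared). With 3 libraries against 3 such a test cannot go below 0.1.

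The coding sequences of CYP79B2 and CYP79B3 were 78.2% identical, with a longest exact run of 32 bases, and it is not stated how reads that fit both would have been counted. The 250 bases before each gene start are printed from the TAIR10.1 genome of RefSeq, 5′ to 3′ along the gene, because they hold the longest run shared between any of the 45 pairs of members. The capitals mark that run of 22 bases, which lay 56 to 77 bases before the start of CYP79B2 and 130 to 151 bases before that of CYP79B3.
CYP79B2, chr4:18524792-18525041, plus strand: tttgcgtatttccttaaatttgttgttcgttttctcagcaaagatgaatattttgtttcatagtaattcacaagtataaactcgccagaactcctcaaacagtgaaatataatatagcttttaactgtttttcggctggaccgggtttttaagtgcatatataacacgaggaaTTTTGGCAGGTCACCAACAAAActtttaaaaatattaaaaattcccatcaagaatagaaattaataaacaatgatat
CYP79B3, chr2:9488163-9488412, plus strand: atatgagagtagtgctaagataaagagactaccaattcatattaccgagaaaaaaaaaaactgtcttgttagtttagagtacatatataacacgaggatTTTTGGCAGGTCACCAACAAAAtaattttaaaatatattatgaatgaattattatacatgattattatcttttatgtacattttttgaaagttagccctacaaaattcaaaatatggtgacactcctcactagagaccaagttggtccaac
Of 26711 promoters of protein-coding genes searched on both strands, 2 held this run, those of CYP79B2 and CYP79B3. The longest run in any other pair of members was 14 bases. Only the longest run of each pair was scored, and the bases just before the capitals are also largely shared by the 2 promoters. The run was singled out after the sequences had been read, and nothing is known from these data of what binds there.

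CYP83B1 (AT4G31500, chromosome 4, 15273410 to 15275404, minus strand) is the cytochrome P450 that oxidizes indole-3-acetaldoxime and commits it to glucosinolates. It was at 45.26, 41.04 and 47.85 RPKM in hid1, against 75.58, 57.35 and 52.85 RPKM in WT. The genotypes did not overlap. It did not pass the test (-0.45, SE 0.14, limma adjusted p = 0.0594). It passed with quantile normalization (adjusted p = 0.029), median-ratio scaling (0.0358) and the replicate block (0.0221), and its adjusted p without WT replicate 1 was 0.122.

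The next step joins the oxidized aldoxime to glutathione, and GSTF9 and GSTF10 are the phi-class glutathione transferases assigned to it. They lie head to tail on the plus strand of chromosome 2, GSTF9 (AT2G30860) at 13138882 to 13140392 and GSTF10 (AT2G30870) at 13141290 to 13142676, with 897 bases between them. GSTF9, the most abundant of the 10 in both genotypes, was at 303.43, 334.18 and 364.16 RPKM in hid1, against 675.33, 582.02 and 570.65 RPKM in WT. Every hid1 library was far below every WT library. GSTF9 fell by 0.87 on the log2 scale (SE 0.12, limma adjusted p = 0.00108) and stayed called in each of the 12 alternatives tried. GSTF10 was at 177.01, 194.26 and 232.86 RPKM in hid1, against 197.87, 206.23 and 202.02 RPKM in WT. Its hid1 libraries lay on both sides of the narrow WT range, and GSTF10 was not called (-0.01, SE 0.12, limma adjusted p = 0.951).

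GSTF9 was thus at 1.71, 1.72 and 1.56 times the RPKM of GSTF10 within the hid1 libraries and at 3.41, 2.82 and 2.82 times within the WT libraries. These ratios did not overlap between the genotypes, and a ratio within a library does not depend on its scaling factor. The difference of log2 values between the genes was lower in hid1 by 0.85 (-0.85, SE 0.10, exact permutation test, two-sided p = 0.1, the smallest this design allows, 0.2 adjusted over the 2 pairs of paralogs and 0.167 over the 5 pairs). It was between -0.898 and -0.761 with any single library left out. The coding sequences of the pair, 648 bases each, were 77.6% identical with a longest exact run of 26 bases. The last 12 bases of GSTF10 overlap SWAP70 (AT2G30880) on the other strand, which was at 9.63 ± 0.376 RPKM in hid1 and 7.54 ± 1.18 in WT (SD, n = 3 each).

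The 250 bases before the starts of these neighbours are shown because the ratio of the pair did not overlap between the genotypes. Capitals in these sequences and in those of the shared enzymes mark the motifs searched for on both strands, namely the G-box CACGTG, a site of bHLH and bZIP factors, the W-box TTGACC or TTGACT, a site of WRKY factors, and the AC elements, sites of R2R3 MYB factors, in the form ACCTACC (element I), in the form ACCAACC (element II) or in the form ACCTAAC (element III). A motif on the minus strand stands in capitals as its reverse complement.
GSTF9, chr2:13138632-13138881, plus strand: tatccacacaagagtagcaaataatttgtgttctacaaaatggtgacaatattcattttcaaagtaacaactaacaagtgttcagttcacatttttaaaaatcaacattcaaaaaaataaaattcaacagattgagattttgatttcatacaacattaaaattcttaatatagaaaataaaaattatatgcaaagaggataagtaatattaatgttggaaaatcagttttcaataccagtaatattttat
GSTF10, chr2:13141040-13141289, plus strand: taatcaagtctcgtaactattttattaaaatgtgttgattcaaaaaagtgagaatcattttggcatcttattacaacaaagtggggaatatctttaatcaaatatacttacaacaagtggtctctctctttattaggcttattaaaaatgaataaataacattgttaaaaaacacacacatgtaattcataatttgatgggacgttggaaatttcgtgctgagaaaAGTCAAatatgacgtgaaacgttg
GSTF9 held none of these letters in this window and GSTF10 held a W-box on the minus strand 24 bases before its start. Across the 26711 promoters, 6.58% held the G-box, 28.5% a W-box and 6.12% an AC element. Of the 10 members, 1 held the G-box (SUR1), 4 a W-box (GSTF10, CYP81F2, GGP1 and SUR1) and 3 an AC element (SOT16, SUR1 and UGT74B1). A match of letters is not a site shown to be bound, and the absence of letters says nothing of a factor.

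The 3 enzymes that the indole and aliphatic branches share act next, and each of them fell. GGP1 (AT4G30530, chromosome 4, 14920376 to 14922519, plus strand) is a gamma-glutamyl peptidase that trims the glutathione conjugate. It was at 35.25, 40.36 and 49.98 RPKM in hid1, against 67.27, 67.99 and 67.67 RPKM in WT. The WT libraries were nearly equal, and the hid1 libraries were spread below them. GGP1 fell by 0.69 on the log2 scale (SE 0.13, limma adjusted p = 0.00631).

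SUR1 (AT2G20610, chromosome 2, 8877887 to 8880440, minus strand) is the C-S lyase that cleaves the conjugate to a thiohydroximate, and its loss is known to raise auxin. It was at 20.82, 19.47 and 21.77 RPKM in hid1, against 42.44, 36.31 and 34.47 RPKM in WT. The highest hid1 library was well below the lowest WT library. SUR1 fell by 0.83 on the log2 scale (SE 0.12, limma adjusted p = 0.00114), with a WT mean 1.82 times the hid1 mean.

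UGT74B1 (AT1G24100, chromosome 1, 8525334 to 8527087, minus strand) adds glucose to the thiohydroximate. It was at 13.24, 14.55 and 17.08 RPKM in hid1, against 27.28, 29.75 and 22.82 RPKM in WT. Here WT replicate 3 was the lowest WT library, and it was still above each hid1 library. UGT74B1 fell by 0.79 on the log2 scale (SE 0.14, limma adjusted p = 0.00423). The calls on GGP1, SUR1 and UGT74B1 held in each of the 12 alternatives, with adjusted p up to 0.0344, 0.0097 and 0.0243. The promoters of the 3 are shown because these members fell together.
GGP1, chr4:14920126-14920375, plus strand: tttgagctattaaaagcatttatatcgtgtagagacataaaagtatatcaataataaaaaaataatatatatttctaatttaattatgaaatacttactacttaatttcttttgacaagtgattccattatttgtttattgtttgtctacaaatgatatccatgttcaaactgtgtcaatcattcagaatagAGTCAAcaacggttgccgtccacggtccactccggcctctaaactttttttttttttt
SUR1, chr2:8880441-8880690, minus strand: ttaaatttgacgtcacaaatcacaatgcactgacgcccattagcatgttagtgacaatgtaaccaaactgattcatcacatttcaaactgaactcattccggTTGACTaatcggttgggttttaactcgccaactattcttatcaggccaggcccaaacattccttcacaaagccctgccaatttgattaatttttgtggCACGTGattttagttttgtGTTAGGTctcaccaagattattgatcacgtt
UGT74B1, chr1:8527088-8527337, minus strand: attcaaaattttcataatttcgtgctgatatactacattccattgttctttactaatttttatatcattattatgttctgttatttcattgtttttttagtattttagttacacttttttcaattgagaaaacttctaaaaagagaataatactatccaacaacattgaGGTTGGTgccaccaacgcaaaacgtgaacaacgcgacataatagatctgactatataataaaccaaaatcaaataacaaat
The promoter of SUR1 held each kind of motif searched, with the W-box 148 bases, the G-box 50 bases and an AC element 31 bases before its start. GGP1 held a W-box 58 bases and UGT74B1 an AC element 81 bases before its start. No motif of the 3 kinds was found in all of the shared promoters.

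SOT16 (AT1G74100, chromosome 1, 27864345 to 27865694, minus strand) is the sulfotransferase that completes indole glucosinolates. It was at 20.32, 20.51 and 25.54 RPKM in hid1, against 34.07, 26.38 and 24.58 RPKM in WT. The genotypes overlapped, since hid1 replicate 3 exceeded WT replicate 3. It did not pass the test (-0.34, SE 0.15, limma adjusted p = 0.151).

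CYP81F2 (AT5G57220, chromosome 5, 23187840 to 23189902, plus strand) acts on the finished compound and hydroxylates the indole ring, a step known for its role in defence against fungi. It was at 2.92, 3.65 and 4.10 RPKM in hid1, against 0.94, 2.28 and 1.79 RPKM in WT. Each hid1 library was above each WT library, and both ranges were low. CYP81F2 rose by 0.80 on the log2 scale (SE 0.21, limma adjusted p = 0.0317), with a hid1 mean 2.13 times the WT mean. Its call was lost without hid1 replicate 2 (adjusted p = 0.0931) or 3 (0.117), without WT replicate 3 (0.0639) and without the filter on low values (0.0888). Its promoter is shown because it was the 1 member called higher.
CYP81F2, chr5:23187590-23187839, plus strand: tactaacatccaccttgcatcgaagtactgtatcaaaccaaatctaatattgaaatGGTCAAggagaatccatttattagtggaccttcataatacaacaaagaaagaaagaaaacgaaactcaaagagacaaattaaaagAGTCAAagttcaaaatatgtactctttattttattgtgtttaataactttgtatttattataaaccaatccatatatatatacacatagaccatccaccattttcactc
It held a W-box 194 bases and another 109 bases before the start, both on the minus strand.

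Levels per length covered a wide range. In hid1 the order of mean RPKM was GSTF9 (334), GSTF10 (201), CYP83B1 (44.7), GGP1 (41.9), CYP79B3 (24.0), SOT16 (22.1), SUR1 (20.7), CYP79B2 (17.8), UGT74B1 (15) and CYP81F2 (3.56). Neighbours whose hid1 libraries overlapped were CYP83B1 with GGP1, CYP79B3 with SOT16, SOT16 with SUR1, and CYP79B2 with UGT74B1. In WT the order of mean RPKM was GSTF9 (609), GSTF10 (202), GGP1 (67.6), CYP83B1 (61.9), CYP79B3 (38.5), SUR1 (37.7), SOT16 (28.3), UGT74B1 (26.6), CYP79B2 (25.1) and CYP81F2 (1.67). The neighbours that overlapped in WT were GGP1 with CYP83B1, CYP79B3 with SUR1, SOT16 with UGT74B1, and UGT74B1 with CYP79B2. GSTF9 and GSTF10 led the order and CYP81F2 closed it in both genotypes.

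The members also varied within a genotype. Among the hid1 libraries, 9 of the 10 were highest in replicate 3, the exception being CYP79B3, and 6 were lowest in replicate 1. Among the WT libraries, 6 were highest in replicate 1 and 6 lowest in replicate 3. How common these orders were among all genes tested was not counted. The 6 highest in WT replicate 1 were CYP79B2, CYP79B3, CYP83B1, GSTF9, SOT16 and SUR1, and that library also held the most root marker RPKM of the WT libraries. Without WT replicate 1 the median log2 fold change of the 7 indole members was -0.23, and that of the 3 shared members was -0.75. The number of members called lower was 5 without that library as well.

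Several steps of the indole branch have an aliphatic counterpart, and the 8 counterparts listed were all called lower, with a median log2 fold change of -1.49. Across all genes tested, 4.21% were called lower and the median was 0.07. These counterparts were listed with earlier results of these data known. CYP79F1, which converts chain-elongated methionine to aldoximes, was at 1.32, 1.77 and 2.37 RPKM in hid1, against 15.7, 13.98 and 11.95 RPKM in WT (-2.41, SE 0.17, limma adjusted p = 2.9e-05). Summed RPKM of CYP79B2 and CYP79B3 was 43.9, 39.7 and 41.8 in hid1 and 81.8, 55.1 and 54.1 in WT. Summed RPKM of CYP79F1 and CYP79F2 was 3.34, 3.43 and 5.48 in hid1 and 27.3, 22.3 and 19.5 in WT. The indole pair thus held 92.9%, 92.0% and 88.4% of the summed entry-enzyme RPKM in hid1 and 75.0%, 71.2% and 73.4% in WT. These shares did not overlap between the genotypes.

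CYP83A1, the aliphatic counterpart of CYP83B1, was at 9.93, 10.3 and 12.38 RPKM in hid1, against 66.83, 56.35 and 46.25 RPKM in WT. Within a library CYP83A1 was at 0.219, 0.251 and 0.259 times CYP83B1 in hid1 and at 0.884, 0.983 and 0.875 times in WT. These ratios did not overlap, and the difference of log2 values between the genes was lower in hid1 by 1.82 (-1.82, SE 0.09, exact permutation test, two-sided p = 0.1, the smallest possible, 0.167 adjusted over the 5 pairs). SOT18 lies 151 bases from SOT16 and adds sulfate to aliphatic compounds. Within a library SOT18 was at 0.457, 0.398 and 0.381 times SOT16 in hid1 and at 0.783, 0.923 and 0.836 times in WT, a difference of log2 values lower in hid1 by 0.96 (-0.96, SE 0.10, exact permutation p = 0.1, 0.167 adjusted). The coding sequences of SOT16 and SOT18 were 78.2% identical with a longest exact run of 32 bases. AT2G31790 is annotated as a UDP-glycosyltransferase family protein. Within a library it was at 1.34, 1.47 and 1.21 times UGT74B1 in hid1 and at 1.41, 1.34 and 1.24 times in WT, with overlap, and the difference of log2 values differed by 0.00 (SE 0.09, exact permutation p = 1.0). The last 3 pairs were added after the data had been seen.

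**Figure D2:**
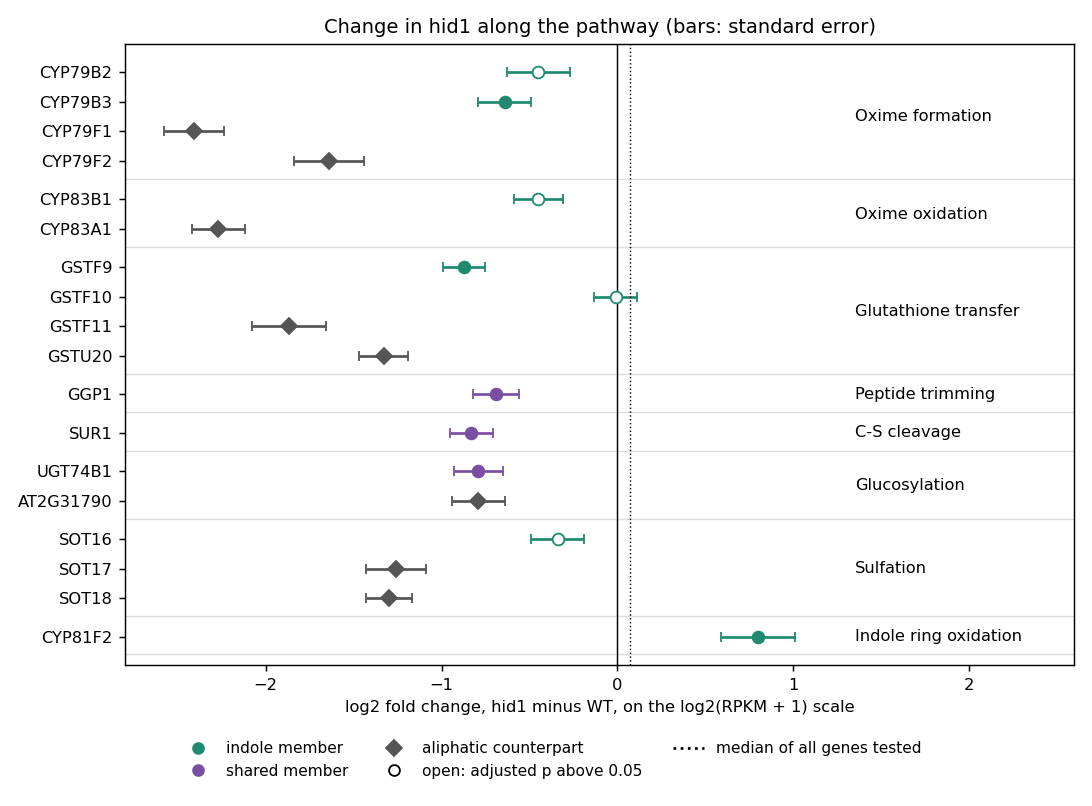
Log2 fold change of hid1 over WT, from log2(RPKM + 1), and its standard error, for indole members, shared members and aliphatic counterparts grouped by pathway step, with open symbols where the adjusted p was above 0.05. The aliphatic genes CYP79F1 (-2.41) and CYP83A1 (-2.27) lie far left of the indole genes of the same step, and CYP81F2 (0.80) lies right of 0.

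**Figure D3:**
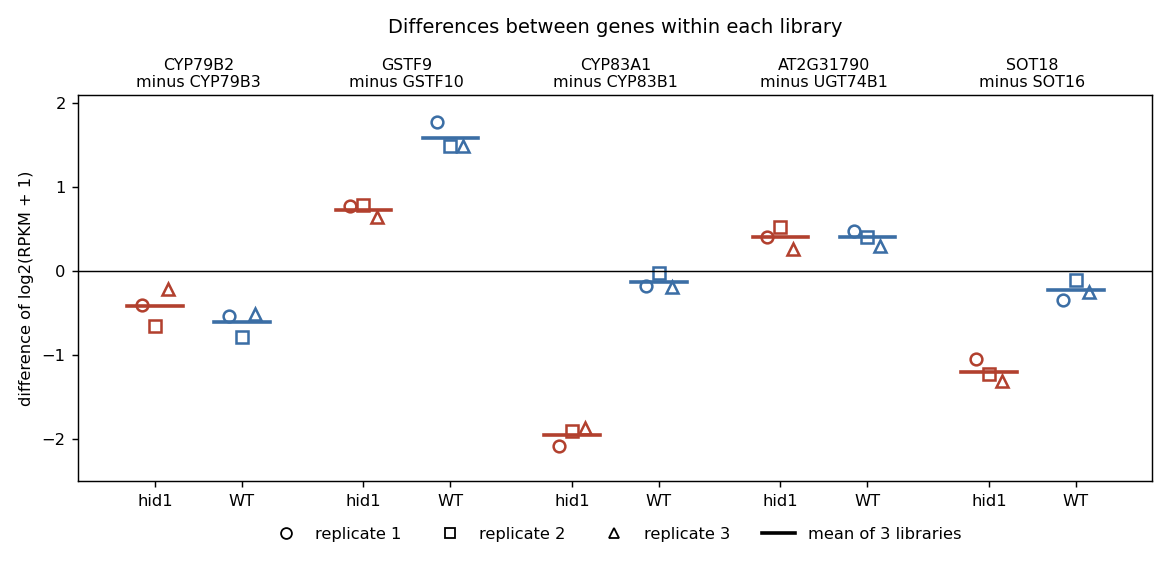
Difference of log2(RPKM + 1) between the genes of 5 pairs in each library, with horizontal bars at the mean of 3 libraries per genotype. GSTF9 minus GSTF10 averages 0.73 in hid1 and 1.58 in WT without overlap, whereas AT2G31790 minus UGT74B1 averages 0.40 in both genotypes.

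The rest of the pathway was described by lists whose counts stand beside the 4.21% called lower and 9.41% called higher among all genes tested. Of the 8 further genes of indole side-chain modification, 7 were tested and none was called, with a median log2 fold change of 0.07. In that list 1 gene, the P450 gene CYP81F4, had an unadjusted limma p below 0.05. It was at 22.48, 18.59 and 17.7 RPKM in hid1, against 43.29, 23.91 and 21.97 RPKM in WT (-0.52, limma adjusted p = 0.14, 0.0191 with the replicate block). CYP81F3, another P450 gene of the list, was at 3.94, 4.0 and 2.96 RPKM in hid1 and 5.26, 2.21 and 1.97 RPKM in WT (0.24, limma adjusted p = 0.582). WT replicate 1 was above the hid1 libraries and the other WT libraries below them, and without WT replicate 1 CYP81F3 was called higher (0.58, limma adjusted p = 0.0434). The methyltransferase gene IGMT4 was at 76.08, 64.11 and 92.92 RPKM in hid1 and 59.88, 70.96 and 82.55 RPKM in WT (limma adjusted p = 0.645).

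Of 11 genes of tryptophan synthesis, 1 fell and 10 did not pass, with a median of -0.07. PAI1, a phosphoribosylanthranilate isomerase, was at 10.62, 10.9 and 15.76 RPKM in hid1, against 15.71, 24.34 and 20.93 RPKM in WT (-0.67, limma adjusted p = 0.0373). The genotypes overlapped slightly, and PAI1 has similar copies, so its reads may be shared. Its call was lost without hid1 replicate 1 (adjusted p = 0.114) or 2 (0.126), without WT replicate 2 (0.126) or 3 (0.099) and without the filter (0.106). TSB2, a tryptophan synthase subunit, was at 3.37 ± 0.355 RPKM in hid1 and 4.97 ± 1.05 in WT (SD, n = 3 each, limma adjusted p = 0.106), and PAI3 at 2.02 ± 0.311 in hid1 and 3.13 ± 1.04 in WT (limma adjusted p = 0.203). Neither of these passed.

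Among the 3 R2R3 MYB factors of indole glucosinolate genes, MYB34 fell. It was at 12.01, 11.56 and 11.51 RPKM in hid1, against 18.94, 15.8 and 15.23 RPKM in WT, with no overlap (-0.47, SE 0.12, limma adjusted p = 0.0287). Its call was lost with any single library left out (adjusted p of 0.0543 to 0.0787). MYB51 was at 4.18, 3.51 and 4.60 RPKM in hid1 and 3.71, 3.45 and 4.85 RPKM in WT (limma adjusted p = 0.918), and MYB122 was below the filter at 0.32 to 0.57 RPKM in hid1 and 0.30 to 0.57 in WT. Of the MYC factors that partner these MYBs, none of 3 was called and none was below an unadjusted limma p of 0.05. MYC2 averaged 14.9 ± 2.16 RPKM in hid1 and 15.7 ± 7.91 in WT, where replicate 1 was at 24.86. MYC3 averaged 19.7 ± 1.18 in hid1 and 19.5 ± 0.465 in WT, and MYC4 5.22 ± 0.91 in hid1 and 7.08 ± 1.4 in WT (SD, n = 3 each). The limma adjusted p of MYC2, MYC3 and MYC4 was 0.976, 0.958 and 0.175.

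Other uses of indole-3-acetaldoxime gave 1 gene lower among 5 tested of 6 listed, with a median of 0.10. CYP71A13, which makes indole-3-acetonitrile for camalexin, was at 1.3, 1.24 and 0.96 RPKM in hid1, against 1.95, 2.69 and 2.96 RPKM in WT (-0.70, limma adjusted p = 0.0269). Its call was lost with any single library left out other than WT replicate 1 (adjusted p of 0.0545 to 0.114). PAD3, which closes the camalexin ring, was at 0.30, 0.48 and 0.51 RPKM in hid1, against 1.51, 1.4 and 0.80 in WT, and just missed the threshold (limma adjusted p = 0.0609). It passed without the filter (adjusted p = 0.0498) and with quantile normalization (0.0461). NIT2, a nitrilase, was at 9.67, 12.25 and 10.54 RPKM in hid1, against 7.39, 7.56 and 8.60 in WT (limma adjusted p = 0.0636). These 3, the genes of smallest adjusted p in the list, had genotypes that did not overlap, as held for 34.6% of all genes tested. CYP71A12, a P450 gene of the list below the filter, was not tested. It was at 0.5, 0.6 and 1.13 RPKM in hid1, against 0.29, 0.3 and 0.27 RPKM in WT, higher in hid1 without overlap.

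Glucosinolate synthesis consumes activated sulfate and glutathione. Of 7 genes of their supply, 4 fell and 3 did not pass, with a median of -0.51. APK2, an adenosine phosphosulfate kinase that makes the sulfate donor of SOT16, was at 12.6, 12.68 and 16.1 RPKM in hid1, against 39.5, 30.7 and 34.73 RPKM in WT (-1.28, SE 0.14, limma adjusted p = 0.000252). APK2 lies 3436 bases before CYP79B2 on the same strand of chromosome 4. Its decrease was more than that of any of the 10 enzymes in the same fit, though that difference was not tested. APS1, an ATP sulfurylase, was at 98.79, 113.32 and 111.58 RPKM in hid1, against 161.3, 153.84 and 161.96 RPKM in WT (-0.56, limma adjusted p = 0.00578). APK1 was at 12.93, 13.4 and 16.61 RPKM in hid1, against 27.06, 22.17 and 18.18 RPKM in WT (-0.61, limma adjusted p = 0.0286). SAL1, a phosphatase that removes the by-product of sulfation, was at 12.96, 16.96 and 20.28 RPKM in hid1, against 23.8, 24.84 and 23.19 RPKM in WT (-0.51, limma adjusted p = 0.0475). The call on APK1 was lost without hid1 replicate 1 (adjusted p = 0.09) or 2 (0.097), WT replicate 2 (0.0737) or the filter (0.0779). That on SAL1 was lost without hid1 replicate 1 (0.14) or 2 (0.104), without WT replicate 1 (0.0505), 2 (0.125) or 3 (0.0979), and without the filter (0.103).

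Of the 3 genes of breakdown 1 rose, and of the 3 of transport none was called. PEN2, a myrosinase of indole glucosinolates, rose to 57.64, 63.55 and 76.11 RPKM in hid1, against 40.97, 42.68 and 44.79 RPKM in WT (0.60, SE 0.12, limma adjusted p = 0.00947). PEN3, the transporter that acts with it, was at 106.69, 110.41 and 140.44 RPKM in hid1, against 78.77, 86.77 and 100.31 in WT, without overlap but short of the threshold (0.42, limma adjusted p = 0.0666, 0.00974 with the replicate block). PYK10, an abundant beta-glucosidase of ER bodies in roots and seedlings, averaged 1211 ± 72.5 RPKM in hid1 and 1096 ± 114 in WT (SD, n = 3 each, limma adjusted p = 0.468). The transporters GTR1 (18.6 ± 3.38 RPKM in hid1, 18.6 ± 2.84 in WT), GTR2 (27.0 ± 2.16 in hid1, 21.6 ± 5.17 in WT) and NRT1.9 (12.3 ± 1.45 in hid1, 12.4 ± 2.38 in WT; SD, n = 3 each) had limma adjusted p of 0.994, 0.183 and 0.991, with none below an unadjusted 0.05. GTR2 was called higher without WT replicate 1 (adjusted p = 0.0166).

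GGP1 has copies beside it on chromosome 4. GGP3, which begins 2887 bases after GGP1 ends, rose where GGP1 fell, at 15.15, 17.14 and 17.92 RPKM in hid1, against 11.01, 12.32 and 10.64 RPKM in WT (0.52, SE 0.12, limma adjusted p = 0.0176). Its call was lost without hid1 replicate 2 (adjusted p = 0.06) or 3 (0.0618) or WT replicate 3 (0.0737). The coding sequences of GGP1 and GGP3 shared a longest exact run of 20 bases. AT4G30540, which lies between them, was listed at 0 in 5 libraries and at 0.05 RPKM in hid1 replicate 3.

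**Figure D4:**
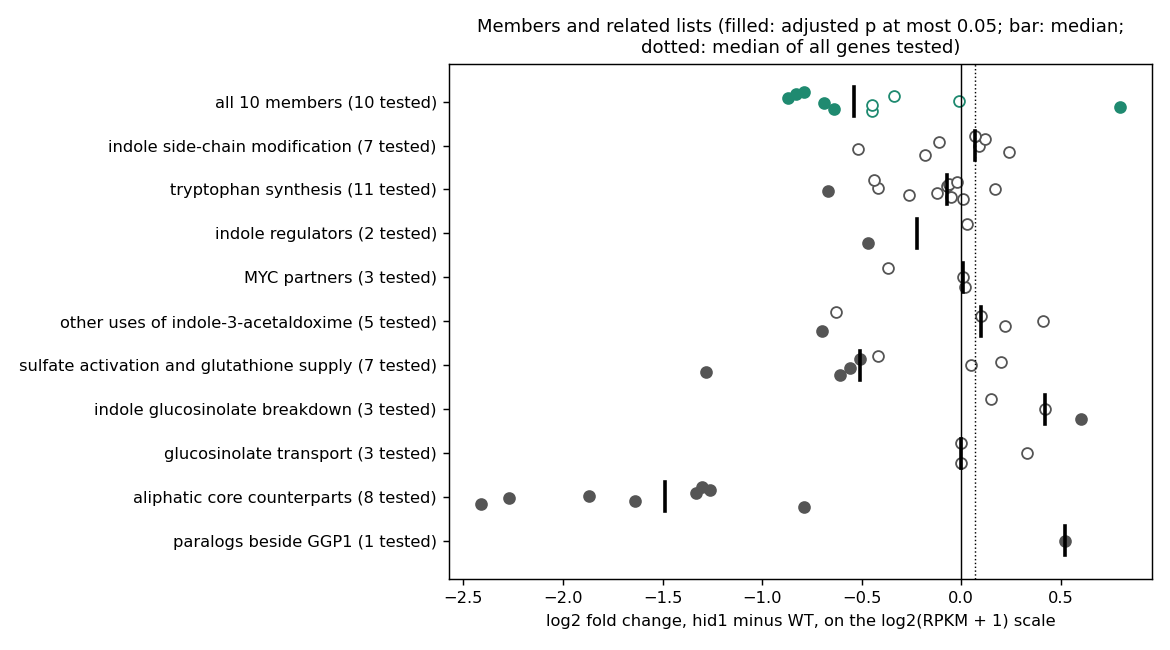
Log2 fold change, hid1 minus WT, of the 10 members and of each tested gene of the 10 related lists, with filled points where the adjusted p was 0.05 or lower and a bar at each median. The members' median (-0.54) lies between that of the aliphatic counterparts (-1.49) and that of all genes tested (0.07).

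Similarity was scored for 12703 other genes that averaged 5 RPKM or more. Those whose log2 values over the 6 libraries were most like the mean profile of the 10 members were GLX1, a glyoxalase family gene (Pearson r = 0.995), SIR, the sulfite reductase of sulfate assimilation (0.994), AT2G37240, annotated as a thioredoxin superfamily protein (0.993), AT5G02050, annotated as a mitochondrial glycoprotein family protein (0.993), and UGT78D1, a flavonol rhamnosyltransferase (0.992). The 6 points share the split between genotypes, so a gene that fell by a like amount scores high. SIR was at 96.59, 94.84 and 106.73 RPKM in hid1, against 148.6, 135.36 and 126.08 RPKM in WT. Within the related lists APK1 (0.986), CYP79F2 (0.985) and SOT17 (0.977) were the most alike.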

How the data were processed

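Per the submitters' processing notes, TopHat2 2.0.9, the TAIR10 build and Cuffdiff 2.0.0 were used. The deposited values are RPKM, per the file headers. How reads were counted, the annotation, the RPKM denominator, the handling of multiply mapped reads and strand use are not stated, and RPKM depends on each of them. A count model does not suit RPKM and none was fitted. For the depth estimate, RPKM was multiplied by the TAIR10.1 exon length and the commonest product within a preset low range was read as 1 read. The estimate could therefore not fall outside the depths which that range allows.

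Libraries were grouped and numbered by their titles. Values were tested as log2(RPKM + 1) with limma 3.58.1 (R 4.3.3; lmFit and eBayes with a trend), with a genotype term alone, on genes that averaged 1 RPKM or more in one genotype or the other, with Benjamini-Hochberg adjustment over all genes tested. The fit was run on simulated data with known changes, and only recovery of the largest of these changes was required. The simulated noise was independent between genes, so effects shared by the genes of a library were not covered. Differences between 2 genes within libraries were tested with an exact permutation test over the 6 libraries. P-values measure the spread between these libraries.

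RefSeq's TAIR10.1 annotation supplied symbols, exon lengths, positions and sequences by gene ID, and 32835 IDs matched. The tables hold no coordinates, so positions were not compared with the authors' build. The members and lists were chosen with earlier results of these data known. The text names all members, from each related list the 3 genes of smallest adjusted p (where none passed, the 2 of highest mean) or every gene of lists of up to 4, and the 5 genes of most similar profile. SAL1, CYP81F3, CYP71A12, SWAP70 and the further aliphatic genes were named after their values were seen. Settings varied in turn were the pseudocount (0.1 and 5), the filter (none), quantile normalization, median-ratio scaling, a block for the replicate number and the omission of each library in turn. Python 3.11.15, pandas 2.3.3, numpy 2.4.6 and matplotlib 3.10.9 were used.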

Additional observations from a re-analysis of the deposited data

How the results depend on the processing

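The count of all genes called, 2569 in the limma fit above, lay between 1430 and 3260 with 1 library left out. With 1 library left out the count of genes higher (1775) lay between 1021 and 2289. That of genes lower (794) lay between 395 and 971. Genes called lower numbered 492 without the filter, 1338 with quantile normalization, 1221 with median-ratio scaling and 1251 with the replicate block, and the split of higher against lower was 1310 to 1338 and 1326 to 1221 under the 2 scalings. The number of members called lower, 5, lay between 4 and 7 over all 12 alternatives. The 1 member called higher, CYP81F2, became 0 without the filter, and the count lay between 0 and 1 with 1 library left out. The related lists together held 54 genes, of which 50 were tested, with a median log2 fold change of -0.09. Across all genes tested, 4.21% were called lower and 9.41% higher. Of the 50, 2 were higher and 15 lower, among them the 8 aliphatic counterparts and 4 genes of sulfate and glutathione supply. The 15 lay between 10 and 17 over the alternatives, and the 2 between 1 and 4 with 1 library left out. The cause of these shifts was not tested.

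Signs turned for genes near 0 that were not called under either setting. With quantile normalization and median-ratio scaling the log2 fold change was -0.032 and -0.036 for MYB51, -0.086 and -0.061 for MYC2, -0.100 and -0.067 for MYC3, and -0.098 and -0.073 for NRT1.9, and with a pseudocount of 5 that of MYC2 was -0.001. With 1 library left out the values lay between -0.123 and 0.074 for GSTF10, -0.014 and 0.250 for IGMT4, -0.048 and 0.149 for MYB51, -0.183 and 0.378 for MYC2, -0.036 and 0.035 for MYC3, -0.140 and 0.109 for GTR1, and -0.068 and 0.146 for NRT1.9. The difference between AT2G31790 and UGT74B1 was -0.028 with a pseudocount of 5 and lay between -0.066 and 0.067 with 1 library left out.

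Whether the replicate numbers pair the libraries was not settled, with correlations of deviations of 0.315, 0.061 and 0.105 between same-numbered hid1 and WT libraries. The replicate block called 3635 genes, and 7 members lower and 1 higher, the added members being CYP79B2 and CYP83B1. The libraries did not all correlate best with their own number, since hid1 replicate 3 correlated with WT replicate 2 at 0.255.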
